A study of Mus with 16 samples.

Results

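The genes examined here are 5 protein-coding genes that flank *Kdm5c*, taken by their Ensembl identifiers: *Huwe1* (ENSMUSG00000025261), *Hsd17b10* (ENSMUSG00000025260), *Smc1a* (ENSMUSG00000041133), *Iqsec2* (ENSMUSG00000041115), and *Tspyl2* (ENSMUSG00000041096). They were chosen for their position beside the targeted gene on chromosome X and not for their expression, and they are 5 of the 54219 genes counted. The question was whether the mutated allele changes the expression of the genes around it. Poly(A) RNA was sequenced from micro-dissected forebrains, that is cortex and hippocampus together, of 16 mice at postnatal day 6 (P6). The 4 groups of 4 animals each were wild-type (WT) males, hemizygous *Kdm5c*-KO males, WT females, and heterozygous *Kdm5c*-HET females. The KO allele is a germline deletion of a pair of *Kdm5c* exons made with Cre, so all cells of a KO male carried it and each HET female also had 1 intact allele. All animals, the WT controls included, had mixed C57BL/6J and 129S1/SvImJ ancestry and came from several litters. On such a background, the deletion and the strain haplotype linked to it cannot be told apart for genes this close, and which strain's haplotype each animal carried there was not analysed here.

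KDM5C is a demethylase that removes methylation from lysine 4 of histone H3, a mark of active promoters, and its gene escapes X inactivation, so that females express both copies. Its neighbours have unrelated functions. *Huwe1* encodes a very large HECT-type E3 ubiquitin ligase that marks proteins for degradation and acts in neural progenitors. *Hsd17b10* encodes a mitochondrial dehydrogenase that works in isoleucine breakdown and is also a subunit of mitochondrial RNase P, which cuts tRNAs out of mitochondrial transcripts. *Smc1a* encodes a core subunit of cohesin, the ring that holds sister chromatids together and forms chromatin loops. *Iqsec2* encodes an exchange factor for the small GTPase ARF6 at the postsynaptic density of excitatory synapses, and *Tspyl2* encodes a nuclear protein of the TSPY-like and nucleosome assembly family. In humans, mutations of *HUWE1*, *HSD17B10*, *SMC1A*, and *IQSEC2* cause X-linked neurodevelopmental disorders, as mutations of *KDM5C* do.

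In the RefSeq annotation of GRCm38.p6 (mm10), *Huwe1* lies at chrX:151800785-151935417, *Hsd17b10* at chrX:152001896-152004442, *Smc1a* at chrX:152016428-152061973, and *Iqsec2* at chrX:152144183-152225237. These 4 genes are on the side of *Kdm5c* (chrX:152233198-152279102) with lower coordinates, and *Tspyl2*, at chrX:152336851-152342484, is on the other side. *Iqsec2* is the closest, with a gap of 7960 bases between its annotated end and *Kdm5c*. The gap is 57.7 kb for *Tspyl2*, 171 kb for *Smc1a*, 229 kb for *Hsd17b10*, and 298 kb for *Huwe1*. The stretch from the start of *Huwe1* to the end of *Tspyl2* measures 541.7 kb and holds 17 RefSeq genes, of which 8 code for protein. The other 3 of these are *Kdm5c* itself, *Ribc1*, and *Gm15266*, and the counts of all 3 were not analysed here because no table paired their identifiers with their symbols. *Smc1a* overlaps *Ribc1* by 459 bases and the pseudogene *Gm15267*, *Iqsec2* overlaps the lncRNA gene *Gm52430* and the pseudogene *Gm52480*, and *Huwe1* hosts the microRNA genes *Mir3113*, *Mirlet7f-2*, and *Mir98*. Whether the counting used strand is not given in the sources used here, so reads in the stretches that overlapping genes share may belong to either gene.

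All 5 genes were expressed in every animal and passed the filter on low counts, as did 17866 of the 35337 genes with a count in any animal. Library totals ranged from 21513783 to 30063352 counted reads. *Huwe1* had a mean of 13636 counts per animal, *Iqsec2* 4120, *Smc1a* 2414, *Tspyl2* 1431, and *Hsd17b10* 545. These totals grow with transcript length, so they set the precision of each gene and give no order of expression between genes. The coefficient of variation between animals of 1 group was 3.50% for *Huwe1*, 5.78% for *Tspyl2*, 6.50% for *Smc1a*, 8.38% for *Hsd17b10*, and 8.67% for *Iqsec2*. Counting error alone would give 0.856% for *Huwe1* and 4.28% for *Hsd17b10*. The median over the 8842 genes with a mean count of at least 400 was 5.82%. Expression is given below as CPM, the counts scaled to a common library size after TMM normalization, and a gene was called at an adjusted p-value (q) under 0.1 in edgeR's quasi-likelihood test over all genes.

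A choroid plexus marker set some libraries apart. *Ttr*, a transthyretin gene expressed in the choroid plexus, had over 1000 counts in 6 animals, namely WT males 2D and 5D, WT females 1D and 3D, and *Kdm5c*-HET females 8E and 9E (animals are named as in the sample titles). *Ttr* and *Aqp1*, the 2 of 6 choroid plexus markers with an identifier, summed to 1.48 to 205 CPM in WT males, 1.98 to 2.82 CPM in *Kdm5c*-KO males, 4 to 195 CPM in WT females, and 3.30 to 86.6 CPM in *Kdm5c*-HET females. *Rbfox3*, the 1 of 8 neuronal markers with an identifier, lay between 216 and 275 CPM in all animals. All 3 were called lower in *Kdm5c*-KO than in WT males, with a Log2FC of -5.76 for *Ttr* (q = 0.0643) and -0.19 for *Rbfox3* (q = 0.0642). *Aqp1* had a mean of 2.12 CPM in WT and 0.535 CPM in KO males (q = 0.0642). The high *Ttr* mean of WT males came from 2D and 5D, with 5380 and 5849 counts. WT males 7D and 1E had 125 and 6 counts, beside 40 to 60 in the KO males. None of the 3 was called between *Kdm5c*-HET and WT females. Their part in the values of the neighbours was not tested. In a bulk sample, fewer cells of a type and less RNA per cell cannot be told apart.

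None of the 5 neighbours was called in *Kdm5c*-KO males or in *Kdm5c*-HET females. In males, 937 of 17866 genes (5.24%) were called against WT, and in females 91 genes (0.509%). These counts were 555 and 50 at the lowest when 1 animal was left out, and 224 and 33 without the 6 animals with over 1000 *Ttr* counts. With all animals, none of the 5 reached an unadjusted p under 0.05 in either sex. Over all genes, 2939 (16.5%) did in males and 1159 (6.49%) in females, so none among 5 genes says little. DESeq2 also called none of the 5. Among the neighbours, the median absolute Log2FC was 0.04 in males and 0.03 in females, beside 0.06 and 0.04 for the genes with a mean count of at least 400. The largest absolute value was a Log2FC of -0.09 for *Iqsec2* in males and -0.10 for *Hsd17b10* in females. Leaving out 1 animal at a time, these ranged from -0.145 to -0.03 and from -0.135 to -0.05. With the title letter as a covariate, the largest male value was that of *Huwe1* (0.07).

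**Figure D1:**
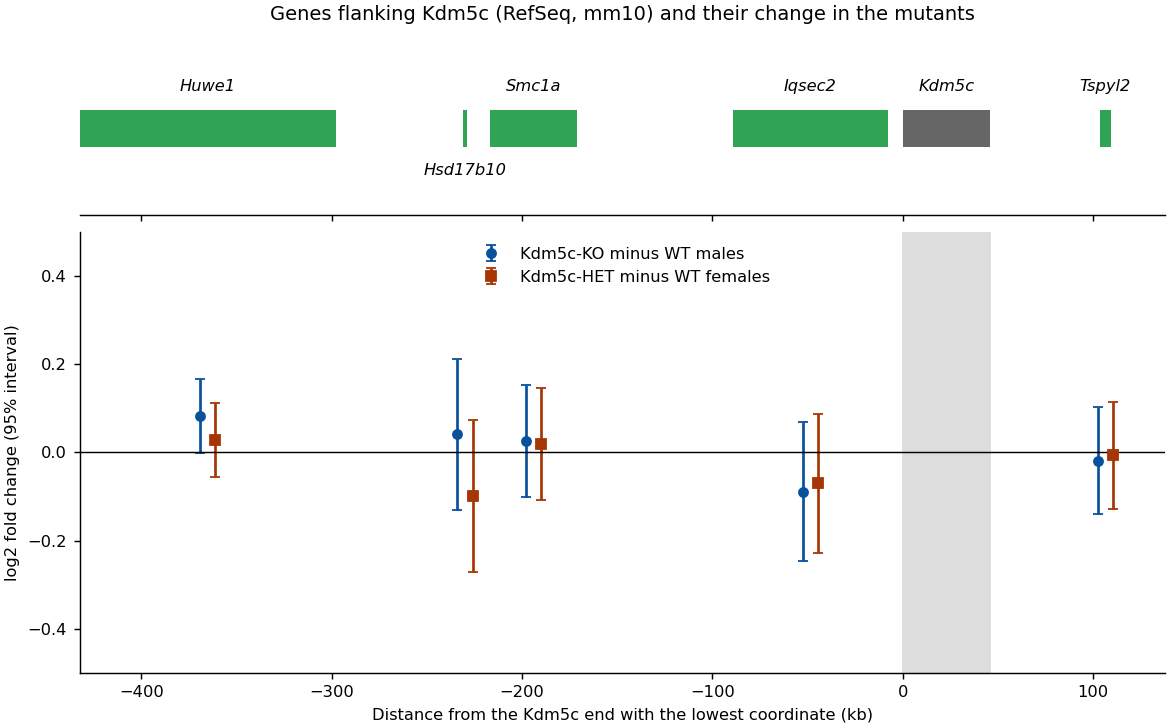
Top, the 5 flanking genes (green) and *Kdm5c* (grey) drawn to scale along chromosome X, in kb from the end of *Kdm5c* with the lowest coordinate. Bottom, the Log2FC of each gene with its 95% interval in *Kdm5c*-KO minus WT males (circles) and *Kdm5c*-HET minus WT females (squares), placed at the middle of the gene. All 10 intervals include 0, and that of *Huwe1* in males, from -0.00122 to 0.17, only just does.

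*Huwe1* was the neighbour closest to a call in males. It measured 489, 492, 512, and 492 CPM in WT males and 507, 524, 536, and 534 CPM in *Kdm5c*-KO males. Of the KO animals, 3 were above every WT male, and the fourth lay below WT male 7D. The KO mean of 525 ± 13.2 CPM (SD, n = 4) was 5.87% above the WT mean of 496 ± 10.9 CPM, with a 95% interval of the fitted change from -0.0844% to 12.2%. The Log2FC was 0.08 (SE 0.04), with q = 0.312 and an exact two-sided permutation p of 0.0571. Over the fits that left out 1 animal each, the Log2FC ranged from 0.07 to 0.10 and q from 0.213 to 0.534.

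In females, *Huwe1* measured 544, 553, 525, and 599 CPM in WT animals and 556, 573, 582, and 554 CPM in *Kdm5c*-HET animals. The HET values all fell within the WT range. The Log2FC was 0.03 (SE 0.04, q = 0.988), a change with an interval from -3.73% to 8.07%. The response in males minus that in females was 0.05 (SE 0.06, q = 0.916), so a sex difference in the response of *Huwe1* was not detectable.

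*Hsd17b10*, the gene with the fewest reads, measured 21.6, 23.3, 18.7, and 21.6 CPM in WT males and 20.8, 21.6, 19.9, and 25.5 CPM in *Kdm5c*-KO males. The groups overlapped, and 1 KO animal, 3E, had the highest value of all 16 animals. The Log2FC was 0.04 (SE 0.08, q = 0.866), and the interval of the change ran from -8.70% to 15.9%. WT females had 21.7, 20.6, 22.6, and 22.4 CPM, and *Kdm5c*-HET females 18.3, 20.5, 20.8, and 21.9 CPM. HET animal 9D was the lowest of the 16, 6E lay just under the WT range, and the others were inside it. The Log2FC was -0.10 (SE 0.08, q = 0.963), with an interval from -17.2% to 5.16%. The estimates had opposite signs in the sexes, but their difference of 0.14 (SE 0.12, q = 0.876) did not pass the test. Without the 6 animals with over 1000 *Ttr* counts, the male value was 0.12 (q = 0.841) and the female value -0.22 (q = 0.842). The male value was negative, down to -0.04, without WT male 7D or without KO male 3E.

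*Smc1a* measured 82.8, 96.3, 98.2, and 95.7 CPM in WT males and 88.8, 94.2, 100.4, and 95.9 CPM in *Kdm5c*-KO males. The groups overlapped, with the lowest male a WT and the highest a KO. Means were 93.2 ± 7.04 and 94.8 ± 4.77 CPM, and the Log2FC was 0.03 (SE 0.06, q = 0.892), with an interval of the change from -6.81% to 11.1%. WT females had 90.1, 89.2, 95.3, and 107 CPM, and *Kdm5c*-HET females 94.1, 94.7, 101, and 97.3 CPM, a Log2FC of 0.02 (SE 0.06, q = 0.998). The HET values lay inside the WT range. The male minus female response of *Smc1a* was 0.01 (SE 0.09, q = 0.997).

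*Iqsec2*, next to the deleted gene, measured 175, 170.5, 172, and 151 CPM in WT males and 169, 175, 147, and 137 CPM in *Kdm5c*-KO males. KO animals 4D and 6D were at the level of the 3 higher WT males, and KO animals 2E and 3E were below all WT males. The Log2FC was -0.09 (SE 0.08, q = 0.615), a change of -5.99% with an interval from -15.7% to 4.83%. WT females had 184, 165, 161, and 148 CPM, and *Kdm5c*-HET females 172, 149, 152, and 154 CPM. The HET values lay inside the WT range, and the Log2FC was -0.07 (SE 0.08, q = 0.977), with an interval from -14.6% to 6.20%. The male minus female response was -0.02 (SE 0.11, q = 0.990).

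*Tspyl2*, on the far side of *Kdm5c*, measured 60.5, 53.8, 53.5, and 52.8 CPM in WT males and 55.0, 48.7, 57.9, and 56.2 CPM in *Kdm5c*-KO males. The highest male was a WT and the lowest a KO, with the others intermixed. The Log2FC was -0.02 (SE 0.06, q = 0.917), with an interval of the change from -9.29% to 7.44%. WT females had 54.9, 55.3, 61.3, and 59.6 CPM, and *Kdm5c*-HET females 58.7, 55.9, 58.7, and 56.5 CPM. The HET animals again fell inside the WT range, and the Log2FC was -0.01 (SE 0.06, q = 0.999), with an interval from -8.52% to 8.27%. The difference between the responses was -0.01 (SE 0.08, q = 0.992).

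**Figure D2:**
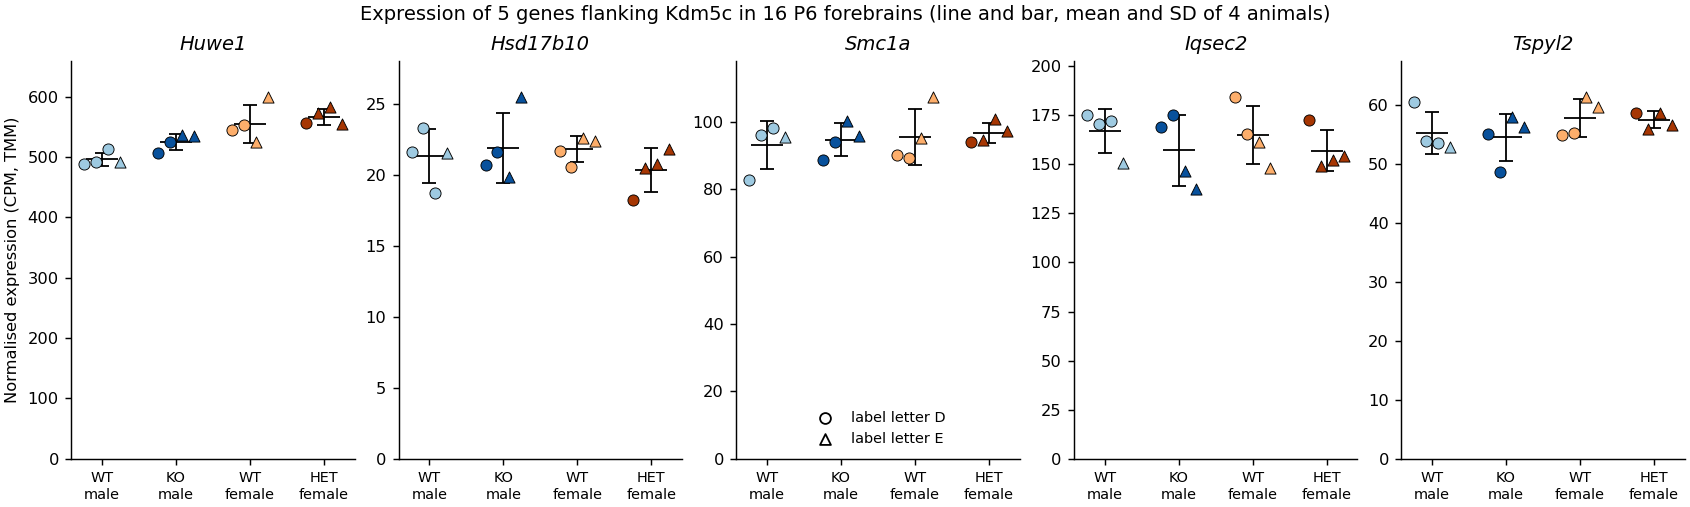
Normalised expression (CPM) of the 5 genes in each of the 16 animals, with the mean and SD of the 4 animals of a group as a line and bar. Circles are animals with the letter D in their title and triangles those with the letter E. *Huwe1* is lowest in WT males (489 to 512 CPM), and for *Iqsec2* the triangles (137 to 161 CPM) lie below all circles (165 to 184 CPM).

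The 95% intervals give the range of change compatible with the values of each gene. In *Kdm5c*-KO males, the lowest bound was -15.7% (*Iqsec2*) and the highest 15.9% (*Hsd17b10*). The *Iqsec2* bound comes from the fit without the letter of the sample titles described below, and with that letter as a covariate the male Log2FC of *Iqsec2* was -0.04 (SE 0.04). In *Kdm5c*-HET females the lowest was -17.2% (*Hsd17b10*) and the highest 10.7% (*Smc1a*). For the sex by genotype interaction, 7 genes (0.0392%) were called among all those tested and none of the 5 was. The largest neighbour value, 0.14 for *Hsd17b10*, had an interval from -0.10 to 0.38. It was 0.22 (SE 0.13) without WT males 2D and 5D and 0.34 (SE 0.17, q = 0.815) without the 6 animals with over 1000 *Ttr* counts.

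**Figure D3:**
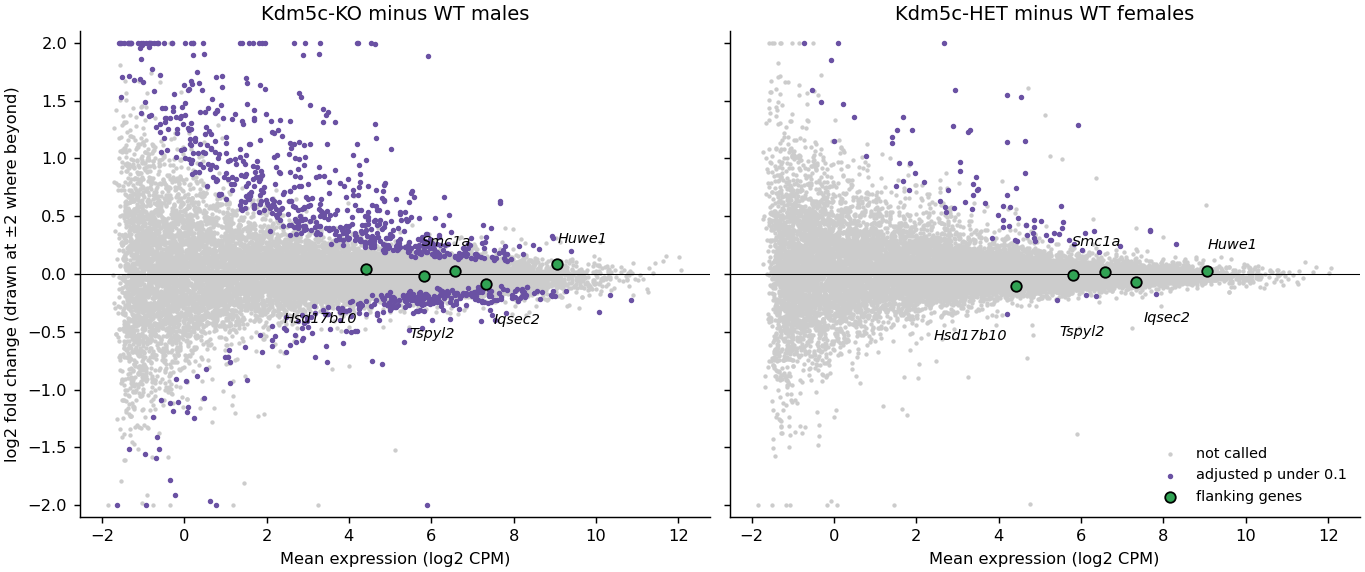
Log2FC against mean expression (log2 CPM) for all 17866 genes tested, in males (left) and females (right), with genes called at q under 0.1 in purple. The 5 flanking genes (green) lie within 0.10 of the zero line in both panels and among the genes that were not called.

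The levels of these X-linked genes were also compared between the sexes. *Huwe1* was the only one of the 5 called between WT females and WT males, where 894 genes (5%) were called, 463 of them higher in females. That count rested on single animals, with 73 genes (0.402%) called without WT male 5D and 69 (0.379%) without WT female 5E. Its values of 525 to 599 CPM in WT females were all above the 489 to 512 CPM of WT males. The female mean of 555 ± 31.4 CPM was 11.9% above that of males in the fit (95% interval 5.61% to 18.6%), with a Log2FC of 0.16 (SE 0.04, q = 0.0429) and an exact permutation p of 0.0286, the smallest that 4 animals against 4 can give. The call was lost without WT male 5D (Log2FC 0.16, q = 0.142) or without WT female 5E (Log2FC 0.12, q = 0.167). It was also lost without WT males 2D and 5D (0.15, q = 0.322) and without the 6 animals with over 1000 *Ttr* counts (0.16, q = 0.354), where 13 genes were called in all. That last fit left out 2 of the 4 WT males and 2 of the 4 WT females, and its SE was 0.07. The Log2FC thus stayed between 0.12 and 0.19 over these fits.

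The same order was seen in the mutants, which share no animal with the WT comparison. *Huwe1* measured 554 to 582 CPM in *Kdm5c*-HET females and 507 to 536 CPM in *Kdm5c*-KO males, again without overlap. The Log2FC was 0.11 (SE 0.04), an increase of 7.81% (95% interval 1.75% to 14.2%), with an exact permutation p of 0.0286. This contrast was added after the data had been seen. In it, 2333 genes (13.1%) had an unadjusted edgeR p under 0.05, and how many lacked overlap was not counted. *Huwe1* did not pass the threshold over all genes (q = 0.23). There 280 genes (1.57%) were called, against 129 without HET female 9E and 44 without the 6 animals with over 1000 *Ttr* counts. In order of their means, the 4 groups were WT males (496 CPM), KO males (525 CPM), WT females (555 CPM), and HET females (566 ± 13.7 CPM). Of the groups next to each other in this order, WT and KO males overlapped in 1 of the 4 KO animals (q = 0.312), WT and HET females overlapped fully, and KO males and WT females were not compared by a test.

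For the remaining 4 genes, a difference between WT females and males was not detectable. The Log2FC was 0.03 (q = 0.884) for *Hsd17b10*, 0.03 (q = 0.816) for *Smc1a*, -0.02 (q = 0.926) for *Iqsec2*, and 0.07 (q = 0.596) for *Tspyl2*. The interval of the change ran from -9.29% to 15.1%, from -6.20% to 11.8%, and from -3.85% to 13.8% for *Hsd17b10*, *Smc1a*, and *Tspyl2*, and the interval of the Log2FC of *Iqsec2* from -0.18 to 0.14. Between the mutants, the values of these 4 genes were -0.11, 0.03, -0.00016, and 0.08, with q of 0.616 or higher.

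*Iqsec2* varied with a letter in the sample titles and not detectably with genotype or sex. The titles carry a letter D or E that neither the labels nor the study's methods explain, and the methods describe a single batch of RNA isolation, library preparation, and sequencing. The letter E marks 1 WT male, 2 KO males, 2 WT females, and 3 HET females, so it is unevenly spread over the groups. This split was noticed after the values had been seen. *Iqsec2* measured 165 to 184 CPM (median 172) in the 8 D animals and 137 to 161 CPM (median 149.9) in the 8 E animals, without overlap. In every group, the E animals were below the D animals.

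Fitted within groups, the *Iqsec2* level in E animals differed from that in D animals by -13.5% (95% interval -17.1% to -9.86%), a Log2FC of -0.21 (SE 0.03, q = 2.41e-05). The exact permutation p over the 576 arrangements of the letter within groups was 0.00174, the smallest they can give. Since the split was noticed after the values had been seen, this p describes the separation and is not independent evidence of it. By the letter, 4219 of all genes (23.6%) were called, and 2 of the 5 neighbours were. The Log2FC ranged from -0.23 to -0.19 over the fits without 1 animal, all of which called it, and was -0.24 (q = 0.00313) without the 6 animals with over 1000 *Ttr* counts. Library totals were 22750335 to 30063352 reads in D and 21513783 to 27833185 reads in E, and the part of depth in the difference was not tested.

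The neuronal genes *Rbfox3* and *Dlg4* were also lower in E animals, but this was not particular to neuronal genes. The astrocyte marker *Aqp4* (Log2FC -0.20, q = 0.000214) and the choroid plexus marker *Aqp1* (-1.28, q = 0.00447) were called lower too. The synaptic gene *Baiap2* (-0.07, q = 0.11) and the blood markers with an identifier were not called. All are among the few listed genes that had an identifier. *Rbfox3* was 237 to 275 CPM in D and 216 to 253 CPM in E, with a Log2FC of -0.12 (q = 0.00625). *Dlg4*, which encodes the postsynaptic scaffold PSD-95, had a Log2FC of -0.18 (q = 6.46e-06). The part of cell composition in the difference of *Iqsec2* was not tested. With the letter as a covariate, the *Iqsec2* response to genotype was -0.04 (SE 0.04, q = 0.664) in males and -0.02 (q = 0.965) in females, nearer to 0 than without it.

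*Smc1a* was also called by the letter, in the other direction. It measured 82.8 to 98.2 CPM in D animals and 94.7 to 107 CPM in E animals, with overlap, and the Log2FC was 0.10 (SE 0.04, q = 0.0659, exact permutation p = 0.0538). The call was lost without KO male 4D, KO male 2E, WT female 1D, WT female 3D, or WT female 5E (q up to 0.192), and without the 6 animals with over 1000 *Ttr* counts (0.04, q = 0.689). *Hsd17b10* (0.10, q = 0.245), *Huwe1* (0.03, q = 0.499), and *Tspyl2* (0.05, q = 0.429) were not called.

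**Figure D4:**
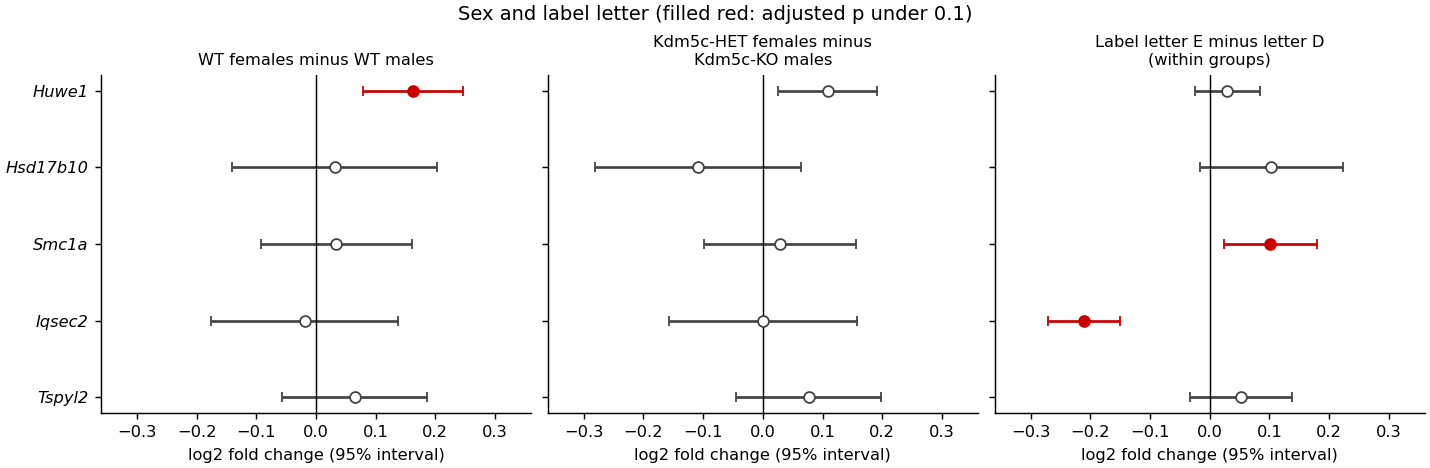
Log2FC with 95% intervals of the 5 genes in WT females minus WT males (left), *Kdm5c*-HET females minus *Kdm5c*-KO males (middle), and animals of the letter E minus the letter D within groups (right). Filled red points passed q under 0.1, namely *Huwe1* by sex (0.16) and *Smc1a* (0.10) and *Iqsec2* (-0.21) by the letter.

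The 5 genes did not share 1 pattern over the 16 animals. The Pearson correlation of log2 CPM was 0.532 for *Huwe1* with *Smc1a* and -0.577 for *Smc1a* with *Iqsec2*, and lay between -0.376 and 0.326 for the other 8 pairs. Within the 8 D and the 8 E animals, the value for *Huwe1* with *Smc1a* was 0.155 and 0.632, and that for *Smc1a* with *Iqsec2* was -0.098 and -0.092. All such values share the libraries and the differences between groups, and are given as descriptions only.

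Genes with the most similar profile were searched among the 1014 whose symbols the study pairs with identifiers, which it had chosen on these samples. *Huwe1* was closest to *Mycbp2*, which encodes another very large E3 ubiquitin ligase (r = 0.934), and to *Pcm1* (0.933), a gene of the centriolar satellites, and *Myo9a* (0.902), an unconventional myosin. These 3 values were 0.841 or higher within D and 0.905 or higher within E. *Iqsec2* was closest to *Sult4a1*, a brain sulfotransferase gene (0.857), *Nr1d1*, which encodes the clock repressor REV-ERBα (0.856), and *Hpca*, which encodes the neuronal calcium sensor hippocalcin (0.856). Within the D animals these were only 0.203, 0.386, and 0.190, and within the E animals 0.676, 0.780, and 0.748. *Smc1a* was closest to *Akap9* (0.766), *Srgap2* (0.740), and *Prokr2* (0.708), and *Tspyl2* to *Aspdh* (0.718), *Adam11* (0.686), and *Dcdc2b* (0.624). Within the E animals, the values for *Tspyl2* were 0.393, 0.438, and 0.102, and within the D animals those for *Smc1a* were 0.532, 0.435, and 0.691. For *Hsd17b10* the highest value was 0.587, with *Mycl* (0.328 within D and 0.688 within E).

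Further from the targeted gene, *Wnk3* (ENSMUSG00000041245), a kinase gene that regulates chloride cotransporters, was the only other gene within 1 Mb of *Kdm5c* whose symbol could be matched. It lies 0.913 Mb away. *Wnk3* measured 44.0 to 49.9 CPM in WT males and 50.7 to 55.8 CPM in *Kdm5c*-KO males, without overlap, and 49.0 to 60.8 CPM in WT and 51.5 to 58.4 CPM in *Kdm5c*-HET females. The Log2FC was 0.20 (SE 0.06, q = 0.0916) in males and 0.01 (q = 0.999) in females. The male call was lost in 10 of the 16 fits without 1 animal, where q ranged from 0.0523 to 0.242, and without the animals with over 1000 *Ttr* counts (0.13, q = 0.653). The study had picked *Wnk3* from these samples, so its male value is not independent evidence of a change. It was also higher in WT females than in WT males (Log2FC 0.24, q = 0.0519), but 5 of the 16 fits did not call it, nor did those without WT males 2D and 5D (0.17, q = 0.41) or without the animals with over 1000 *Ttr* counts (0.27, q = 0.276). By the letter, *Wnk3* was called with a Log2FC of 0.14 (q = 0.00836). With the letter as a covariate, both calls were kept, with 0.17 (q = 0.0416) in males and 0.20 (q = 0.0163) between WT sexes.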

How the data were processed

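Raw counts were analysed as the authors deposited them: whole numbers of reads per Ensembl gene, without normalization, 1 column for each of the 16 animals. Per the submitters' processing notes and the study's methods, reads of a directional poly(A) library were mapped to mm10 with STAR 2.5.3a, duplicates were removed, uniquely mapped reads were kept, and genes were counted with featureCounts (Subread 1.5.0). Here, counts were filtered with filterByExpr, normalized by TMM, and fitted in R 4.3.3 with edgeR 4.0.16 (quasi-likelihood, 1 mean per group, all 16 animals). Adjustment was by Benjamini-Hochberg over all 17866 genes that were fitted, and 0.1 was the threshold. Exact two-sided permutation tests of mean log2 CPM (prior count 2) are unadjusted, with 20 tests of 4 animals against 4 for the genes described. Nothing in the labels pairs animals. The p-values treat the 16 animals as independent, although they came from several litters and the labels do not say which animal came from which.

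The edgeR fit was first tested on simulated counts, for the male and female genotype contrasts only and with changes placed in KO males. The other contrasts, DESeq2, and the permutation tests were not tested in this way. As alternatives, each animal was left out in turn, a contrast was fitted on its own 8 animals, the title's letter entered as a covariate, and DESeq2 1.42.0 or its size factors were used. The low-count filter was dropped or raised to 10 counts per animal, and the threshold was set to 0.05. Leaving out WT males 2D and 5D, leaving out the 6 animals with over 1000 *Ttr* counts, the contrast of the letters, and that of *Kdm5c*-HET females with *Kdm5c*-KO males were added after the data had been seen. The members and lists were chosen with earlier results of these data known.

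Genes were named by rule: the 5 neighbours, any tested gene with a symbol within 1 Mb of *Kdm5c*, the called genes of 7 lists of related genes with 1 or 2 uncalled ones by highest mean, and the 3 most similar profiles to each neighbour. Symbols came from the study's table of 1014 identifiers. Only 16 of the 131 listed genes and markers (12.2%) had an identifier, so counts over the lists are void, and *Kdm5c* itself was not analysed here. Positions are from the RefSeq annotation. 1 marker gene is not reported here.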

Additional observations from a re-analysis of the deposited data

Results flagged for a closer look

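In 3 of the 20 sets of 4 animals examined (5 genes in 4 groups), 1 animal lay far from the other 3, with a gap to its nearest neighbour, as a share of the range of log2 CPM, above the limit of 0.829. Chance alone gives about 1 such set in 20. All 3 were WT males. *Huwe1* was high in WT male 7D (512 CPM, ratio 0.84), *Smc1a* was low in WT male 2D (82.8 CPM, ratio 0.85), and *Tspyl2* was high in WT male 2D (60.5 CPM, ratio 0.86). WT male 2D is 1 of the 6 animals with over 1000 *Ttr* counts.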

How the results depend on the processing

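No fit with another tool, scaling, filter, threshold or set of animals called any of the 5 neighbours in the genotype contrasts or the interaction, and values are Log2FC throughout. Estimates near 0 changed sign under some settings, with the cause not tested. With the letter as a covariate, *Smc1a* was -0.00153 in males and -0.00396 in females, *Iqsec2* was 0.0330 between WT sexes and 0.0558 between the mutants, and *Wnk3* was -0.0241 in females. Without WT males 2D and 5D, *Smc1a* was -0.0313 in males, -0.0507 in the interaction, and -0.0226 between WT sexes. *Iqsec2* was then 0.0328 in the interaction and 0.0317 between WT sexes, and *Tspyl2* 0.0353 in males and 0.0425 in the interaction. *Huwe1* was 0.145 between WT sexes and not called, leaving 0 of the 5 called there. Without the 6 animals with over 1000 *Ttr* counts, *Smc1a* was -0.0303 in males, -0.106 in females, and -0.0127 between the mutants. *Tspyl2* was 0.0364 in males and 0.117 in the interaction, *Iqsec2* 0.0505 in females and 0.0279 between the mutants, and *Wnk3* -0.136 in females and -0.00595 between the mutants. The calls of *Huwe1* between WT sexes (0.161) and *Smc1a* by the letter (0.0422) were then lost, leaving 0 and 1 of the 5 called.

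Leaving out 1 animal at a time, the male Log2FC ranged from -0.0406 to 0.0897 for *Hsd17b10*, -0.0276 to 0.0556 for *Smc1a*, and -0.0491 to 0.0323 for *Tspyl2*. The female one ranged from -0.0144 to 0.0771 for *Smc1a*, -0.0337 to 0.0226 for *Tspyl2*, and -0.0430 to 0.0602 for *Wnk3*. The interaction ranged from -0.0508 to 0.0406 for *Smc1a*, -0.0726 to 0.0414 for *Iqsec2*, and -0.0422 to 0.0419 for *Tspyl2*. Between WT sexes, ranges were 0.123 to 0.188 for *Huwe1*, -0.0262 to 0.0778 for *Hsd17b10*, -0.0270 to 0.0643 for *Smc1a*, and -0.0784 to 0.0270 for *Iqsec2*, with 0 to 1 of the 5 called. Between the mutants they were -0.00584 to 0.0567 for *Smc1a* and -0.0603 to 0.0515 for *Iqsec2*. By the letter they were 0.0627 to 0.140 for *Hsd17b10*, called only without KO male 2E (q = 0.0965), and 0.0743 to 0.115 for *Smc1a*, with 1 to 2 of the 5 called. Without a change of sign or call, *Iqsec2* ranged from -0.145 to -0.0290 in males and -0.120 to -0.0152 in females. *Hsd17b10* ranged from -0.135 to -0.0522 in females, 0.0591 to 0.192 in the interaction, and -0.154 to -0.0279 between the mutants, and *Huwe1* from 0.00255 to 0.0637 in females.

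Over all genes, the male contrast called 937 genes, 1468 with the letter as a covariate, 274 without WT males 2D and 5D, 224 without the 6 animals, and 583 at a threshold of 0.05. The female contrast called 91, with 142 in DESeq2, 228 without a filter, 157 with the letter, and 33 without the 6 animals. The WT sex contrast called 894, with 1529 in DESeq2, 1679 with the letter, 348 at 0.05, 10 without WT males 2D and 5D, and 13 without the 6 animals. The interaction's 7 became 27 in DESeq2, 80 without a filter, 24 with the letter, 3 without WT males 2D and 5D, and 0 without the 6 animals. The 280 between the mutants became 605 in DESeq2, 723 without a filter, 985 with the letter, and 44 without the 6 animals, and the 4219 by the letter became 1728. Leaving out 1 animal moved several counts by over 1.5 times. The male count was 571 without WT male 2D, 555 without WT male 5D, 561 without KO male 2E, and 593 without KO male 3E. The female count was 50 without WT female 3D, 59 without HET female 6E, and 54 without HET female 8E. The WT sex count was 73 without WT male 5D, 319 without WT male 7D, 436 without WT female 4E, and 69 without WT female 5E. That between the mutants was 183 without KO male 4D, 160 without KO male 6D, 157 without HET female 6E, 154 without HET female 8E, and 129 without HET female 9E. No paired analysis was run, since nothing in the labels pairs animals, but the letter of the titles was entered as a covariate. Counts of genes within fixed distances of *Kdm5c* were not run, since most identifiers had no symbol or position. Depth limits *Hsd17b10* most, at 418 to 723 counts per animal.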

Other observations

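Several genes related to the 5 neighbours by family or function had an identifier. They are few of their lists, and the study had picked them on these samples. Of the 8 listed paralogues, *Tspyl3* and *Tspyl5*, relatives of *Tspyl2*, had a Log2FC in *Kdm5c*-KO males of 0.17 (q = 0.0662) and 0.15 (q = 0.0976), and both were close to 0 in females (0.04 and 0.03). Of the 17 listed cohesin genes, *Esco1*, an acetyltransferase that locks the ring containing *Smc1a*'s product, had a Log2FC of 0.54 in males (q = 0.0635) and of 0.33 by the letter (q = 0.00893). Of the 11 listed genes of ARF6 and the synapse, *Baiap2*, an actin regulator of dendritic spines, had a Log2FC of -0.16 in males (q = 0.0662), and *Dlg4* one of -0.20 (q = 0.11). *Jpx*, a noncoding activator of *Xist* and the only 1 of 13 listed genes on escape from X inactivation with an identifier, had a Log2FC of 0.44 in females (q = 0.191). None of the 19 listed HECT ligase genes and none of the 14 listed genes of mitochondrial RNase P and isoleucine breakdown could be matched.

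The hemoglobin gene *Hba-a1*, a marker of blood in the tissue, had a Log2FC of -0.59 in *Kdm5c*-KO males (q = 0.00131). The 4 of 5 blood markers with an identifier summed to 118 to 146 CPM in WT males and 66.1 to 107 CPM in *Kdm5c*-KO males, while WT females had 90.8 to 104 CPM and *Kdm5c*-HET females 96.1 to 103 CPM. *Aqp4*, the 1 of 5 astrocyte markers with an identifier, lay at 149 to 167 CPM in WT males and 120 to 145 CPM in *Kdm5c*-KO males. It was not called in males (Log2FC -0.24, q = 0.115). The females overlapped, at 133 to 169 CPM in WT and 135 to 170 CPM in *Kdm5c*-HET animals. By the letter, *Aqp4* was called lower in E animals (Log2FC -0.20, q = 0.000214).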
